A study of Homo sapiens with 8 samples.

Results

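The genes described here encode 10 transcription factors of epithelial lineages: EHF, ELF3, ELF5, GRHL2, OVOL1, KLF4, KLF5, TP63, TFAP2C and GATA3. They were chosen by name, and each had 1 row of its own in both deposited tables, among 41875 gene rows kept for MCF10A and 41907 for the NOTCH1-labelled line. RNA sequencing covered 8 samples in 4 groups of 2. MCF10A, an established non-tumorigenic human mammary epithelial line, and MCF10A cells that overexpress the NOTCH1 intracellular domain were kept for 3 days in 30 µM ginkgolic acid, known to block SUMO conjugation, or in the solvent DMSO. Both lines grew in the same medium with horse serum, insulin, cholera toxin, epidermal growth factor and hydrocortisone, so the controls carry these agents too. The labels name neither the promoter nor the vector of the NOTCH1 fragment, and do not say whether the line is a clone or the samples separate cultures.

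Transcription factors of this kind keep epithelial genes on and set how far a cell moves along its lineage. EHF, ELF3 and ELF5 are ETS factors of glandular and squamous epithelia. GRHL2 and OVOL1 sustain epithelial junctions and differentiation and oppose mesenchymal programs. KLF4 and KLF5 are zinc finger factors with differing roles, KLF4 in differentiation and barrier formation and KLF5 in proliferating basal cells. p63, the product of TP63, maintains basal cells of stratified and mammary epithelium, and TFAP2C and GATA3 are regulators of the mammary luminal lineage.

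The tables give 1 FPKM value (a level scaled for transcript length and sequencing depth) per gene and group. No spread between samples can be computed from them, so no difference below was tested against replicate error. "Higher" and "lower" compare the values of groups. Genes were called measured where either group reached 1 FPKM, and past the size rule where the groups stood at least 2-fold apart, a log2 ratio of 1 or more in size. The tables were normalized separately, so ratios were taken within a table, and levels set across the tables carry an unknown factor.

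NOTCH1 itself was at 5.03 FPKM in the DMSO group labelled NOTCH1 and at 11.4 FPKM in that labelled MCF10A, which goes against the label, so the line is called NOTCH1-labelled. With ginkgolic acid it ran the way of the labels, at 12.4 and 6.18 FPKM. The Notch target HES1 was at 45.4 and 36.6 FPKM in the DMSO groups and at 508 and 179 with ginkgolic acid, and each of these levels is set across tables. Epithelial identity was checked with 6 pan-epithelial markers, which summed to between 1272 and 2471 FPKM. KRT7, at 927 to 1618 FPKM, made up most of the sum in each group. With ginkgolic acid 4 of the 6 were above and 2 below DMSO in each line. Those below were CDH1 and KRT7 in MCF10A, and CDH1 and KRT19 in NOTCH1-labelled cells. KRT19 was low, at 2.53 against 2.11 FPKM with DMSO in MCF10A and 0.325 against 2.42 in NOTCH1-labelled cells. Of 7 basal markers, the 5 with a row of their own in MCF10A summed to 289 and 305 FPKM with ginkgolic acid and DMSO, and the 6 in the NOTCH1-labelled table to 1021 and 1255. KRT5, without a row of its own in MCF10A, made up 614 and 990 FPKM of the latter, so these sums do not compare the lines. With ginkgolic acid, 2 of the 5 were above and 3 below DMSO in MCF10A. In NOTCH1-labelled cells 5 of the 6 were above DMSO and 1, KRT5, below. Markers of other cells had smaller sums: those over the genes found, 6 of 6, 6 of 7, 5 of 6 and 4 of 5, ranged from 4.59 to 17.0 FPKM for hormone-sensing luminal cells, 23.1 to 73.1 for fibroblasts, 12.6 to 17.6 for leukocytes and 2.89 to 10.9 for endothelium. Among these, KRT20 was at 0 in the NOTCH1-labelled ginkgolic acid group. Of the 6 fibroblast markers, 2 were above and 4 below DMSO with ginkgolic acid in each line. DCN, the highest of them, was at 9.11 against 18.05 FPKM with DMSO in MCF10A and at 31.8 against 63.4 in NOTCH1-labelled cells, while COL3A1 was at 2.74 against 0.0172 in MCF10A and 1.01 against 1.48. Of the 6 luminal markers, 5 were above and 1 below DMSO with ginkgolic acid in MCF10A. In NOTCH1-labelled cells 1 was above and 5 below. AGR2 was at 12.5 against 0.774 FPKM in MCF10A and at 1.49 against 2.73 in NOTCH1-labelled cells. FOXA1 ran the other way in each line, at 1.45 against 2.02 and at 3.35 against 2.05 FPKM. The part of these cell types in the results was not tested. In these bulk samples, fewer cells of a type and less RNA per cell cannot be told apart.

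The sequences before the transcription starts of EHF, ELF3, KLF5 and KLF4 are shown. EHF, ELF3 and KLF5 held the highest levels in both DMSO groups, and KLF4 is set beside KLF5 as the other KLF gene. EHF and KLF5 were lower together in MCF10A while ELF3 and KLF4 were not. TP63 and GATA3 were also lower there, and their windows and that of ELF5 are not shown. Each sequence is the 250 bases before an annotated start, taken from RefSeq on GRCh38.p14, and is printed 5′ to 3′ on the strand of the gene. Capitals mark matches to the motifs named after the sequences, and no matches overlapped in the windows shown.
EHF, the first start, chr11:34624007-34624256, plus strand: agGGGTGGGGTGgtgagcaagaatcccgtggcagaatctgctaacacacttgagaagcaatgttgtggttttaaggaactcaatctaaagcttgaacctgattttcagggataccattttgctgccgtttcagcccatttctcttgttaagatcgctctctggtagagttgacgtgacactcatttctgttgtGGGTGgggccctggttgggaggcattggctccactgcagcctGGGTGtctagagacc
EHF, the second start, chr11:34632316-34632565, plus strand: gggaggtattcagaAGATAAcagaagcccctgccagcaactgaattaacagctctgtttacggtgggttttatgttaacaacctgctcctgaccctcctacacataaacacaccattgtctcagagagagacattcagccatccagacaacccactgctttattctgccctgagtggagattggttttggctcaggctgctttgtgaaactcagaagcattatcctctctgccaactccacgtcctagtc
ELF3, chr1:202010337-202010586, plus strand: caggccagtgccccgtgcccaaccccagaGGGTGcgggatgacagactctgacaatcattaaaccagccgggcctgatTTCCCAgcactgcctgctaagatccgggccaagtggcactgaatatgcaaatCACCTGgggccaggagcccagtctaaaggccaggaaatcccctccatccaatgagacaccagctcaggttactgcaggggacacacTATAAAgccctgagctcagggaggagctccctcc
KLF5, the first start, chr13:73054726-73054975, plus strand: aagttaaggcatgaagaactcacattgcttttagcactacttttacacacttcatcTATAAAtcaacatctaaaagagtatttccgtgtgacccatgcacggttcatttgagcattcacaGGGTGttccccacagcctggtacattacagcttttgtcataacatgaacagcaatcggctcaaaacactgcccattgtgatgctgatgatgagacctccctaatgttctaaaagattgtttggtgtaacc
KLF5, the second start, chr13:73058755-73059004, plus strand: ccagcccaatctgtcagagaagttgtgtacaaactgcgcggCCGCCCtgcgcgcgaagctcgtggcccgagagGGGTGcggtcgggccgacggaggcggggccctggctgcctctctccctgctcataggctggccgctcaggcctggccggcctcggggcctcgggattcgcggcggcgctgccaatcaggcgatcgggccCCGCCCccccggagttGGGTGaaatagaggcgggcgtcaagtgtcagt
KLF4, chr9:107489770-107490019, minus strand: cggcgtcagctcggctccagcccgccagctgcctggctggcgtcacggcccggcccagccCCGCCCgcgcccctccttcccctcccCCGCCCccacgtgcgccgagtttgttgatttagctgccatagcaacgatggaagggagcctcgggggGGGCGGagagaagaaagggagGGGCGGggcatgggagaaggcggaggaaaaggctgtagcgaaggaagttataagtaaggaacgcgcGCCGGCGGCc

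Of the 10 genes, 7 had 14 windows in the RefSeq table, 6 of them at GATA3. Each window was searched on both strands from 250 bases before to 50 bases after the start, and the same was done for all 35116 windows. The KLF and SP letters CACCC were in 11 of the 14 windows and in 59.9% of all windows, and the SP letters GGGCGG in 6 and in 44.95%. The first EHF window held CACCC 5 times, the last of them after the start and not printed. The second EHF window held neither of these motifs and a single GATA match, AGATAA, found in 10.3% of all windows. KLF4 held GGGCGG 4 times. The ELF3 window had a TATAAA match 34 bases before the start, a motif in 4 of the 14 windows, at ELF3, GATA3, TP63 and the first KLF5 start, and in 11.5% of all windows. The letters TGGGAA, the core bound by the Notch partner RBPJ, were in 3 windows, at ELF3, at GATA3 and at the first EHF start, where the match lies after the start and is not printed, and in 24.0% of all windows. The SNAI and ZEB letters CACCTG were in the windows of ELF3 and ELF5, against 20.6% of all. The AP-2 letters GCCNNNGGC were in 4 windows, 1 at KLF4 and 3 at GATA3, and in 23.2% of all. The ETS letters CCGGAAG were in 1 window, at GATA3, and in 10.3% of all, and the AP-1 letters TGACTCA in 1, also at GATA3, and in 4.95% of all. The Grainyhead letters CCGGTT and the ATF4 letters TGATGCA were in none of the 14, and in 7.23% and 2.63% of all windows.

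In MCF10A, ginkgolic acid left 5 of the 10 genes at least 2-fold lower than DMSO and none at least 2-fold higher. The lower genes were EHF, OVOL1, KLF5, TP63 and GATA3. Among all 17557 measured genes with a ratio, 15.2% were lower by 2-fold or more and 24.4% higher. Measured genes at 0 in a group are outside these shares, 422 at 0 with ginkgolic acid and 1978 with DMSO. These shares depend on level, taken as the geometric mean of the groups. From 1 to 5 FPKM, 25.8% were higher, against 10.5% from 5 to 20, 7.40% from 20 to 100 and 8.71% from 100 FPKM up. The lower shares in these bands were 15.7%, 16.9%, 12.0% and 9.58%. Genes with a geometric mean below 1 FPKM are in no band, and OVOL1, at 0.751 FPKM, is among them. The median log2 ratio of the 10 genes was −0.85, and 0.07 over all genes. ELF5 did not reach 1 FPKM in either MCF10A group, and OVOL1 counted as measured only through its DMSO value.

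In NOTCH1-labelled cells, genes passed the size rule both ways. Ginkgolic acid values of OVOL1, KLF4, TFAP2C and ELF3 were higher by 2-fold or more, which is 4 of 10 genes against 18.8% of 19409 genes. EHF and GRHL2 were at least 2-fold lower, 2 of 10 against 18.9%. Left out of these shares are 1691 measured genes at 0 with ginkgolic acid and 809 at 0 with DMSO. In the same level bands, from low to high, 16.6%, 19.6%, 16.9% and 13.0% of genes were higher. The lower shares were 20.6%, 8.14%, 4.50% and 6.11%. By its geometric mean EHF lies from 20 to 100 FPKM and GRHL2 from 1 to 5. OVOL1 counted as measured here only through its ginkgolic acid value. With at least 1 FPKM required in every group compared, an alternative added after the values were seen, 3 genes were higher in NOTCH1-labelled cells and 4 lower in MCF10A. Shares over all genes were not computed for that alternative. The median log2 ratio of the 10 genes was 0.67, and 0.06 over all genes. Of the 10, EHF alone was past the size rule in the same direction in both lines, and OVOL1 alone in opposite directions. The shares of all genes in these 2 classes were not computed. Over 15406 genes measured in both lines, the log2 ratios of the lines had a Pearson correlation of only 0.11.

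**Figure D1:**
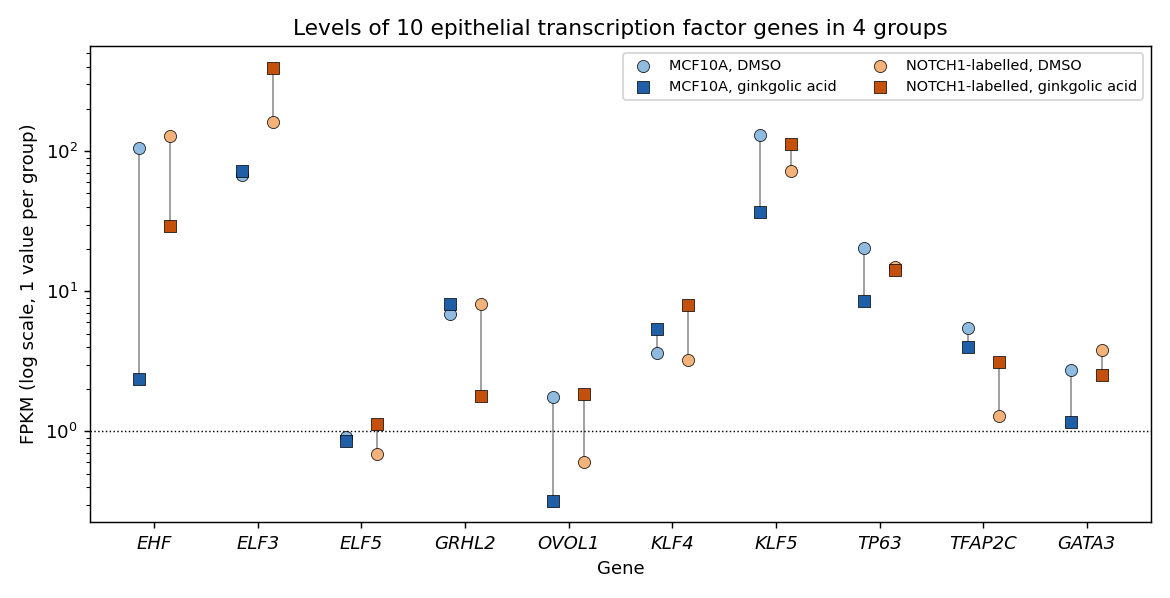
FPKM on a log axis for each of the 10 genes (horizontal axis) in the 4 groups, with 1 value per group; circles are DMSO, squares are ginkgolic acid, and a line joins the groups of a table. The EHF circle and square lie at 105 and 2.36 FPKM in MCF10A and at 129 and 29.2 in NOTCH1-labelled cells, while ELF3 reaches 396 FPKM in the NOTCH1-labelled ginkgolic acid group.

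EHF, an ETS factor of glandular and airway epithelium, had the lowest ratio of the 10 genes in MCF10A. It was at 105 FPKM with DMSO and 2.36 FPKM with ginkgolic acid, 44.6-fold lower, a log2 ratio of −5.48. Only 14 of the 17557 genes with a ratio had a lower one. The 422 measured genes at 0 with ginkgolic acid have no ratio and are not ranked. NOTCH1-labelled cells had 129 FPKM with DMSO and 29.2 FPKM with ginkgolic acid, 4.40-fold lower, a log2 ratio of −2.14. EHF was thus among the 3 highest of the 10 genes in each DMSO group and in the NOTCH1-labelled ginkgolic acid group, and was the seventh highest in MCF10A with ginkgolic acid. The row of EHF covers chromosome 11 from 34642639 to 34684820 (hg19, the build of the tables) and shares its locus with no other row.

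ELF3, an ETS factor of differentiating and inflamed epithelium, was within 2-fold in MCF10A and higher in NOTCH1-labelled cells. It was at 67.9 FPKM with DMSO and 72.2 FPKM with ginkgolic acid in MCF10A, a log2 ratio of 0.09. NOTCH1-labelled cells had 163 and 396 FPKM, 2.43-fold higher with ginkgolic acid. ELF3 was the highest of the 10 genes in both ginkgolic acid groups and in the NOTCH1-labelled DMSO group. Its locus (chromosome 1, 201951499 to 201986316) joins that of the neighbouring aminopeptidase gene RNPEP, which has a row of its own at 53.9 and 34.6 FPKM in MCF10A and 100.03 and 45.3 FPKM in NOTCH1-labelled cells with ginkgolic acid and DMSO, 2.21-fold apart in the latter. The annotation used (GENCODE 29) also places an antisense gene, ELF3-AS1, over ELF3, and whether counting used strand is not given in the sources used here.

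ELF5, the ETS factor of the alveolar lineage of the mammary gland, was near the detection range in all groups. It was at 0.905 and 0.860 FPKM in MCF10A with DMSO and ginkgolic acid and at 0.692 and 1.13 FPKM in NOTCH1-labelled cells. Olfactory receptor genes, which are silent in most tissues and served as a low-level reference chosen after the values were seen, had 95th percentiles between 0.892 and 1.54 FPKM across the groups. ELF5 lay below that percentile in the MCF10A ginkgolic acid and the NOTCH1-labelled DMSO groups, which hold 77.4% and 66.0% of these receptors below it. Milk protein genes, among the known ELF5 targets, were low as well: of 6 found, CSN1S1, CSN2, CSN3, LALBA and BTN1A1 did not reach 1 FPKM in any group. A row in the ELF5 locus, AL137224.1, was listed at 53.6 FPKM with ginkgolic acid and at 0 with DMSO in MCF10A, and at 0 in both NOTCH1-labelled groups. The polymeric immunoglobulin receptor gene PIGR did, at 3.56 FPKM with DMSO and 0.543 with ginkgolic acid in MCF10A and at 7.05 and 4.03 FPKM in NOTCH1-labelled cells.

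EHF and ELF5 are neighbours on chromosome 11, with 107 kb between their loci, and no other measured gene with a ratio within 500 kb of EHF was lower by 2-fold in either line. The catalase gene CAT was at 51.7 and 25.4 FPKM with ginkgolic acid and DMSO in MCF10A, 2.04-fold higher, and 2.55-fold higher in NOTCH1-labelled cells. On the other side, PDHX, a subunit of the pyruvate dehydrogenase complex, was at 69.2 and 55.1 FPKM in MCF10A and 92.7 and 65.6 in NOTCH1-labelled cells. APIP, an enzyme of methionine salvage, was at 33.9 and 29.5 FPKM in MCF10A and at 38.2 and 27.9 in NOTCH1-labelled cells. Around KLF5, the exoribonuclease gene DIS3 was at 45.8 and 41.5 FPKM in MCF10A and at 53.4 and 63.4 in NOTCH1-labelled cells, within 2-fold in each table. PIBF1, a centrosomal gene, was at 42.2 and 16.2 FPKM in MCF10A and at 39.4 and 42.5 in NOTCH1-labelled cells, and MZT1, a subunit of the tubulin nucleation complex, at 29.9 and 17.8 and at 69.1 and 14.5. The mitotic gene BORA was at 3.61 and 4.94 and at 11.96 and 5.49 FPKM. No neighbour of KLF5 was lower by 2-fold in MCF10A.

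**Figure D2:**
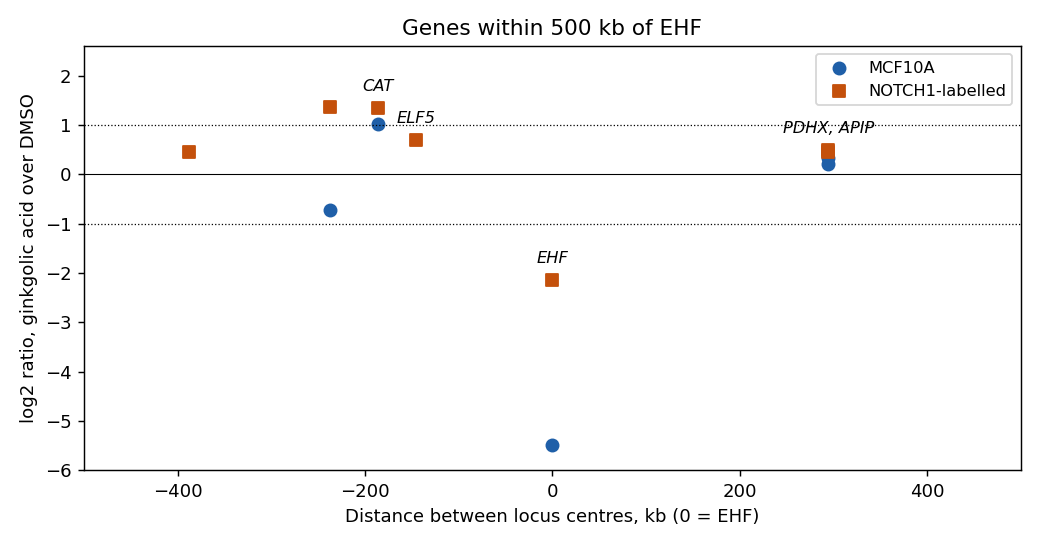
Log2 ratio of ginkgolic acid over DMSO (vertical axis) of each measured gene with a ratio within 500 kb of EHF, against the distance between locus centres in kb (horizontal axis); blue circles are MCF10A, orange squares are NOTCH1-labelled cells, and dotted lines mark the size rule of 2-fold. EHF lies at −5.48 and −2.14 while CAT, PDHX and APIP lie above 0 in both lines; unnamed points are genes without a common symbol.

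The makeup of the ETS family differed between the groups. Summed over 25 ETS genes, EHF held 27.1% of the FPKM in MCF10A with DMSO, where it was the highest, and 0.835% with ginkgolic acid, where ETS2 was the highest at 91.6 FPKM. ELF3 held 17.5% and 25.5% of the sum. In NOTCH1-labelled cells EHF held 25.1% with DMSO and 3.81% with ginkgolic acid, and ELF3 31.8% and 51.5%. The sum of the family was 389 FPKM with DMSO and 283 with ginkgolic acid in MCF10A, and 513 and 768 in NOTCH1-labelled cells.

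Other ETS genes had smaller ratios than EHF in MCF10A. Of 17 measured paralogs, 2 were higher and 3 lower by 2-fold or more in MCF10A, and 5 and 1 in NOTCH1-labelled cells. That is 11.8% and 17.6% in MCF10A, where all genes gave 24.4% and 15.2%, and 29.4% and 5.88% in NOTCH1-labelled cells, where all genes gave 18.8% and 18.9%. ETV6, a repressor of the family, was at 12.5 and 10.9 FPKM with ginkgolic acid and DMSO in MCF10A and at 25.0 and 3.49 in NOTCH1-labelled cells. ETS2, an ETS factor downstream of RAS signalling, was 1.48-fold higher in MCF10A and 2.82-fold higher in NOTCH1-labelled cells. ERF, a repressor controlled by ERK, was at 2.27 and 7.52 FPKM in MCF10A and 1.38 and 2.23 in NOTCH1-labelled cells. ETV4, an ERK-responsive activator, was at 1.07 and 0.296 FPKM and at 1.09 and 0.155, low in all groups.

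**Figure D3:**
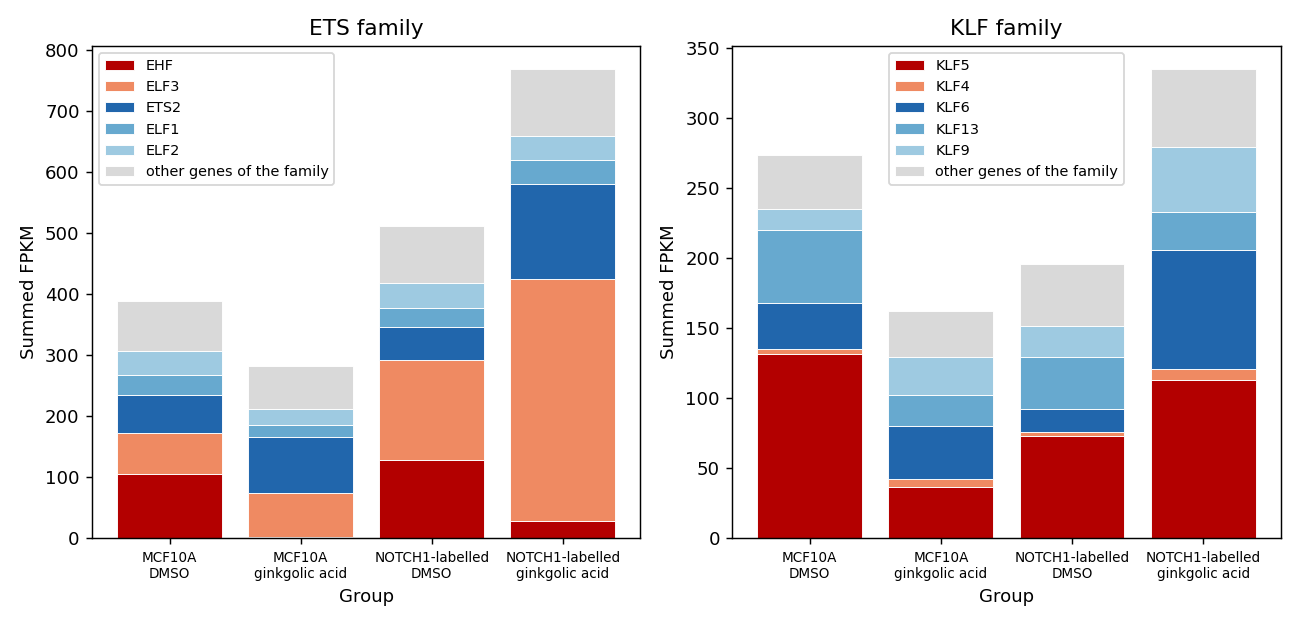
Stacked bars, from 0, of the summed FPKM of 25 ETS genes (left) and 17 KLF genes (right) in the 4 groups, with 1 value per group; colours are genes and grey is the rest of the family. The EHF segment is 27.1% of the ETS sum with DMSO and 0.835% with ginkgolic acid in MCF10A, and ELF3 makes up 51.5% of it in NOTCH1-labelled cells with ginkgolic acid.

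GRHL2, a Grainyhead factor that activates genes of epithelial junctions, was lower by 2-fold in NOTCH1-labelled cells alone among the 2 lines. It was at 6.88 FPKM with DMSO and 8.18 FPKM with ginkgolic acid in MCF10A, a log2 ratio of 0.25. In NOTCH1-labelled cells it was at 8.18 FPKM with DMSO and 1.79 FPKM with ginkgolic acid, 4.56-fold lower, a log2 ratio of −2.19. The NOTCH1-labelled ginkgolic acid value was the low one of the 4. The locus of GRHL2 (chromosome 8, 102473404 to 102681954) also holds 3 rows without a common symbol, the highest at 2.37 FPKM.

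Paralogs of GRHL2 passed the size rule in MCF10A and not in NOTCH1-labelled cells. In MCF10A, 4 of 5 were lower by 2-fold or more, which is 80% of the list against 15.2% of all genes. The median log2 ratio of the 5 was −1.31, and 0.07 over all genes. UBP1 was at 13.2 FPKM under ginkgolic acid and 55.4 under DMSO, GRHL1 at 3.79 and 12.8, TFCP2L1 at 7.498 and 18.6, and GRHL3, a factor of the epidermal barrier, at 3.10 and 6.91. TFCP2 was at 6.98 and 8.86 FPKM. In NOTCH1-labelled cells all 5 stayed within 2-fold, with a median of −0.34, UBP1 at 34.1 and 49.0 FPKM and GRHL1 at 10.04 and 14.98. Over all genes there, 18.8% were higher and 18.9% lower, and the median was 0.06. TFCP2 and UBP1 hold annotated small RNAs. GRHL2 was therefore the lowest of the 6 family genes in NOTCH1-labelled cells with ginkgolic acid, and the highest after UBP1 in MCF10A with ginkgolic acid.

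OVOL1, a zinc finger repressor that acts in epithelial differentiation, was low in all groups and differed in sign between the lines. In MCF10A it was at 1.76 FPKM with DMSO and 0.321 with ginkgolic acid, 5.49-fold lower. In NOTCH1-labelled cells it was at 0.607 FPKM with DMSO and 1.86 with ginkgolic acid, 3.07-fold higher. The lower value in each table lay within the range of olfactory receptor genes, with 33.9% and 60.3% of them below it, so these ratios rest on levels near background. A row that shares its locus, RP11-770G2.5, was at 3.61 and 0.0782 FPKM with DMSO and ginkgolic acid in MCF10A and at 2.18 and 0.841 in NOTCH1-labelled cells. GENCODE 29 places 2 antisense genes over OVOL1, and reads of these and of OVOL1 cannot be told apart where strand was not used. The paralog OVOL2 was at 9.90 and 4.66 FPKM with DMSO and ginkgolic acid in MCF10A and holds a small nucleolar RNA.

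KLF5, a factor of proliferating basal epithelium, was the highest of the 10 genes in MCF10A with DMSO, at 131 FPKM, and was at 36.6 FPKM with ginkgolic acid, 3.59-fold lower. NOTCH1-labelled cells had 72.8 FPKM with DMSO and 113 FPKM with ginkgolic acid, a log2 ratio of 0.63, within 2-fold. Among the 3055 MCF10A genes whose geometric mean of the groups lay between 20 and 100 FPKM, where KLF5 lies with 69.4 FPKM, 12.0% were at least 2-fold lower. KLF5 held 48.0% of the summed FPKM of 17 KLF genes in MCF10A with DMSO and 22.6% with ginkgolic acid, and 37.3% and 33.7% in NOTCH1-labelled cells. Its row covers chromosome 13 from 73629113 to 73651676 and overlaps no other row.

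KLF4, a factor of growth arrest and barrier differentiation, was at 3.63 FPKM with DMSO and 5.38 with ginkgolic acid in MCF10A, 1.48-fold higher and within the size rule. NOTCH1-labelled cells had 3.22 and 7.98 FPKM, 2.48-fold higher with ginkgolic acid. Of the 2 KLF genes, KLF5 was thus the more abundant in each group and KLF4 had the higher ratio in both lines. Of 10 measured KLF paralogs, 1 was higher and 2 lower by 2-fold or more in MCF10A, and 3 and 0 in NOTCH1-labelled cells, each gene being 10% of the list. All genes gave 24.4% higher and 15.2% lower in MCF10A, and 18.8% and 18.9% in NOTCH1-labelled cells. KLF6, an immediate early member, was at 38.03 and 32.7 FPKM with ginkgolic acid and DMSO in MCF10A and at 85.1 and 16.3 in NOTCH1-labelled cells. KLF7 was at 9.67 and 4.61 FPKM in MCF10A and at 24.9 and 11.4 in NOTCH1-labelled cells, and holds annotated small RNAs. KLF13 was at 22.0 and 52.7 FPKM in MCF10A and 26.9 and 36.8 in NOTCH1-labelled cells, and KLF16 at 1.84 and 6.91 and at 1.22 and 1.71.

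TP63 was at 20.5 FPKM with DMSO and 8.53 FPKM with ginkgolic acid in MCF10A, 2.41-fold lower, a log2 ratio of −1.27. In NOTCH1-labelled cells it was at 14.96 and 14.2 FPKM, a log2 ratio of −0.08. The gene makes forms with and without the N-terminal activation domain from separate starts, and the single value per gene does not separate them. Its intronic microRNA gene MIR944 was listed at 0 in all groups. The locus spans chromosome 3 from 189349204 to 189615068. The paralog TP73 was at 1.76 and 0.297 FPKM with DMSO and ginkgolic acid in MCF10A and at 1.35 and 0.288 in NOTCH1-labelled cells.

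TFAP2C, the AP-2γ factor of the luminal lineage and of placental trophoblast, was at 5.49 FPKM with DMSO and 3.99 FPKM with ginkgolic acid in MCF10A, within 2-fold. In NOTCH1-labelled cells it was at 1.28 and 3.12 FPKM, 2.44-fold higher with ginkgolic acid. Its DMSO value there lay above 91.2% of olfactory receptor genes. TFAP2A, the other AP-2 gene that reached 1 FPKM, was more abundant in each group, at 11.2 and 15.8 FPKM in MCF10A and 9.15 and 28.6 in NOTCH1-labelled cells with DMSO and ginkgolic acid, 3.12-fold higher in the latter. TFAP2B, TFAP2D and TFAP2E did not reach 1 FPKM in any group.

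GATA3, which specifies luminal cells of the mammary gland, was low: 2.76 FPKM with DMSO and 1.17 with ginkgolic acid in MCF10A, 2.35-fold lower, and 3.82 and 2.53 in NOTCH1-labelled cells, within 2-fold. The ginkgolic acid value in MCF10A lay above 92.2% of olfactory receptor genes, so this ratio rests on a level near background. GATA3 was the highest of 6 GATA genes in each group, with 42.8% to 70.2% of their summed FPKM. GATA2 reached 1.09 FPKM with DMSO in MCF10A and was at 0.316 with ginkgolic acid. GATA1, GATA4, GATA5 and GATA6 stayed below 1 FPKM. An antisense gene, GATA3-AS1, overlaps GATA3.

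**Figure D4:**
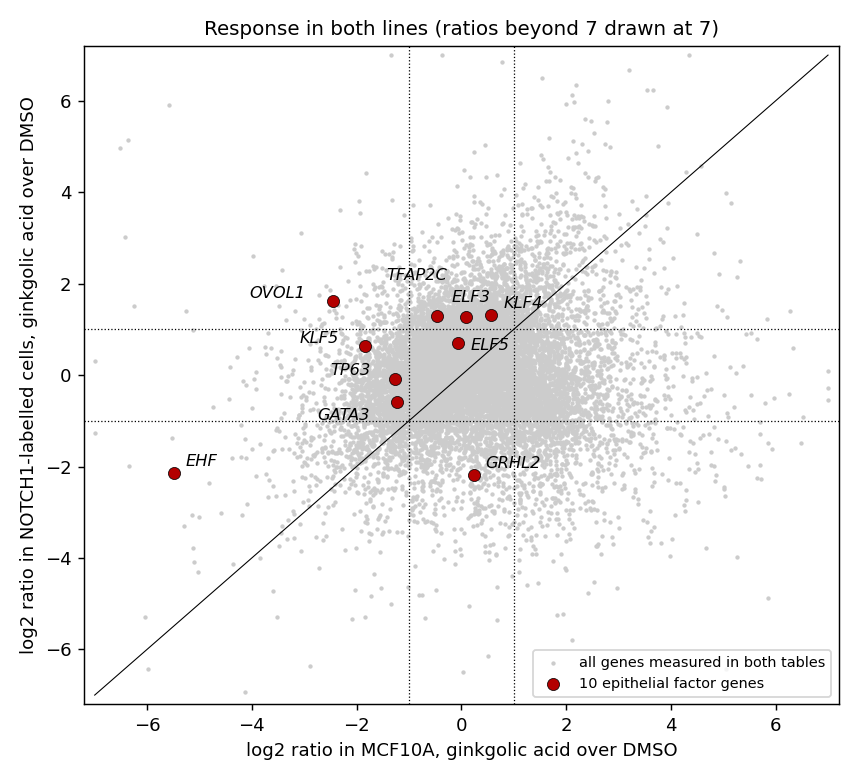
Log2 ratio of ginkgolic acid over DMSO in MCF10A (horizontal axis) against that in NOTCH1-labelled cells (vertical axis), with 15406 genes measured in both tables in grey, the 10 factor genes in red, the solid line at equal ratios and dotted lines at 2-fold. All factor genes except GRHL2 lie above the line of equal ratios, with OVOL1 and EHF farthest above it; the differences were not tested.

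The log2 ratio was higher in NOTCH1-labelled cells for 9 of the 10 genes, GRHL2 being the exception, and for 57.3% of 15406 genes measured in both lines, among which ELF5, 1 of the 9, does not count. Subtracting the log2 ratio in MCF10A from that in NOTCH1-labelled cells gave a difference of at least 1 for OVOL1 at 4.07, EHF at 3.34, KLF5 at 2.48, TFAP2C at 1.75, TP63 at 1.19 and ELF3 at 1.19. That is 6 of 10 genes, against 21.5% of all genes. With at least 1 FPKM in every group it was 5, a setting for which no share over all genes was computed. GRHL2 differed by −2.44, 1 of 10 against 22.5% of genes. The median difference was 1.19 for the 10 genes and 0.22 for all. With the median ratio of each table removed, those of TP63 and ELF3 both came to 0.94, below the size rule. The positive difference of EHF joins a gene that was lower in both lines, whereas that of KLF5 and TP63 joins a gene lower in MCF10A and within 2-fold in the other line.

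The order of levels among the 10 genes held a common pattern with local changes. EHF, ELF3 and KLF5 were the 3 highest in both DMSO groups and in NOTCH1-labelled cells with ginkgolic acid, where they made up 87.9%, 91.8% and 94.3% of the summed FPKM of the 10 genes. In MCF10A with ginkgolic acid the 3 highest were ELF3, KLF5 and TP63, with 84.1% of the sum. The sum itself was 347 FPKM with DMSO and 140 with ginkgolic acid in MCF10A, and 397 and 571 in NOTCH1-labelled cells. Neighbours in this order were often close, such as TP63 and GRHL2 in MCF10A with ginkgolic acid, at 8.53 and 8.18 FPKM, or KLF5 and EHF in MCF10A with DMSO, at 131 and 105. Without replicate values their order cannot be tested.

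Genes with the most similar pattern over the 4 groups were found by the distance between log2 FPKM values centred per gene, among 11702 genes with at least 1 FPKM in each group. For EHF these were S100A8 and S100A9, the subunits of calprotectin, at distances of 0.88 and 1.01, and C1orf74 at 1.48. S100A8 was at 355 and 9.09 FPKM with DMSO and ginkgolic acid in MCF10A and at 571 and 58.1 in NOTCH1-labelled cells, and S100A9 at 419 and 24.2 and at 825 and 235. For KLF5 the nearest were AKAP6, the homeobox gene PITX1 and the aminopeptidase gene ANPEP, at 0.11 to 0.15. PITX1 was at 21.3 and 5.37 FPKM in MCF10A and at 10.9 and 17.9 in NOTCH1-labelled cells. For TP63 they were UBLCP1, the E-cadherin gene CDH1 and LAPTM4A, at 0.07 to 0.08. CDH1 was at 96.6 and 39.2 FPKM in MCF10A and at 65.8 and 63.9 in NOTCH1-labelled cells.

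The nearest genes of the other factors lay at 0.29 to 0.30 for ELF3 (USP50, GDA and RAB26), 0.25 to 0.39 for GRHL2 (C22orf46, RP11-303G3.6 and SCNN1D) and 0.04 to 0.08 for KLF4 (FAM193B, MTMR2 and IFNGR2). They were at 0.16 for TFAP2C (TMEM135, NAV2 and KRTCAP3) and at 0.11 to 0.14 for GATA3 (MARCKS, KLHL2 and NEBL). OVOL1 and ELF5 were left out, since neither reached 1 FPKM in each group. With 4 values per gene, such likeness is a description of these groups.

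Genes known to be activated by these factors were followed as lists, to be read against the shares over all genes: 24.4% higher and 15.2% lower in MCF10A, and 18.8% and 18.9% in NOTCH1-labelled cells. Of 16 measured barrier and mucosal genes that KLF4, ELF3 or EHF activate, 12 were lower and 0 higher by 2-fold or more in MCF10A, the median log2 ratio being −1.91. That is 75.0% lower. The median was −1.22 with no minimum FPKM and −1.39 with a pseudocount of 1 FPKM. The cornified envelope gene SPRR1B was at 5.82 FPKM against 66.4 with DMSO, the elastase inhibitor gene PI3 at 7.38 and 91.5, and the mucosal keratin gene KRT13 at 0.391 and 3.51. The placental alkaline phosphatase gene ALPP, which has near-identical paralogs, was at 0.269 and 1.11 in MCF10A and at 0.0468 and 1.21 in NOTCH1-labelled cells. In NOTCH1-labelled cells 3 of 18 were lower and 1 higher by 2-fold or more, with a median of 0.12 and a mean of −0.33, and SPRR1B was at 46.3 and 35.5 FPKM, PI3 at 61.0 and 40.6, and KRT13 at 7.59 and 5.97. Of the 3 factors, EHF alone was lower by 2-fold in either line, 44.6-fold in MCF10A and 4.40-fold in NOTCH1-labelled cells. A link between EHF and these genes was not tested.

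Of 21 measured genes activated by Grainyhead-like factors, 10 were lower and 2 higher by 2-fold or more in MCF10A, with a median of −0.81, and 3 and 5 in NOTCH1-labelled cells, with a median of 0.44. The lower share was 47.6% in MCF10A, and in NOTCH1-labelled cells 14.3% were lower and 23.8% higher, near the shares over all genes. GRHL2 itself was lower by 2-fold in the NOTCH1-labelled line, where 3 of these genes were, and a link was not tested. The transglutaminase gene TGM1 was lower in both, at 1.23 against 42.0 FPKM in MCF10A and 1.25 against 21.4 in NOTCH1-labelled cells. The tight junction gene CLDN4 was at 1.16 and 5.59 FPKM with ginkgolic acid and DMSO in MCF10A and at 11.3 and 6.05 in NOTCH1-labelled cells. PRSS8, a membrane serine protease gene, was at 10.4 and 11.6 and at 20.3 and 3.46 FPKM. PLA2G10, a secreted phospholipase gene, was at 0.469 and 1.12 and at 0.276 and 1.10.

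Of 19 measured genes bound and activated by p63, 8 were lower and 2 higher by 2-fold or more in MCF10A, with a median of −0.74. In NOTCH1-labelled cells 1 of 20 was lower and 5 higher by 2-fold or more, with a median of 0.29. The lower share was 42.1% in MCF10A and 5.00% in NOTCH1-labelled cells. The basal keratin gene KRT14 was at 5.68 FPKM under ginkgolic acid and 21.8 under DMSO in MCF10A and at 24.0 and 16.2 in NOTCH1-labelled cells. The desmosomal genes PERP and DSG3 were at 260 and 971 and at 75.4 and 228 FPKM in MCF10A, and at 482 and 540 and at 270.5 and 210.1 in NOTCH1-labelled cells. ZNF750, a differentiation factor downstream of p63, was at 0.922 and 2.79 FPKM and at 4.63 and 1.83.

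Among mesenchymal regulators that GRHL2 and OVOL factors oppose, 2 of 8 measured genes were lower and 1 higher by 2-fold or more in MCF10A, with a median of −0.40, and 0 and 2 in NOTCH1-labelled cells, with a median of 0.68. Each gene is 12.5% of this list. ZEB1, a repressor of E-cadherin, was at 0.780 FPKM under ginkgolic acid and 4.96 under DMSO in MCF10A and at 8.12 and 3.72 in NOTCH1-labelled cells. TWIST1 was higher in both lines, at 71.2 and 26.5 and at 65.7 and 27.5 FPKM, and TWIST2 was at 1.64 and 4.57 and at 4.36 and 2.24. In NOTCH1-labelled cells ZEB1 and OVOL1 were at least 2-fold higher and GRHL2 at least 2-fold lower in the same comparison. In MCF10A ZEB1 and OVOL1 were both at least 2-fold lower and GRHL2 was within 2-fold. Links between these genes were not tested.

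Of the other epithelial and mammary lineage regulators, 21 were measured in MCF10A, where 4 were higher and 4 lower by 2-fold or more, the median being −0.44. In NOTCH1-labelled cells 28 were measured, with 7 higher, 9 lower and a median of 0.11. The shares were 19.05% each way in MCF10A, and 25.0% higher and 32.1% lower in NOTCH1-labelled cells. CEBPB, a C/EBP factor of mammary development and stress, was at 114 and 51.8 FPKM with ginkgolic acid and DMSO in MCF10A and at 203 and 29.5 in NOTCH1-labelled cells. SOX9, a progenitor factor, was at 0.570 and 0.403 FPKM and at 3.70 and 0.546, and FOXQ1 at 0.414 and 0.828 and at 0.235 and 1.17.

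**Figure D5:**
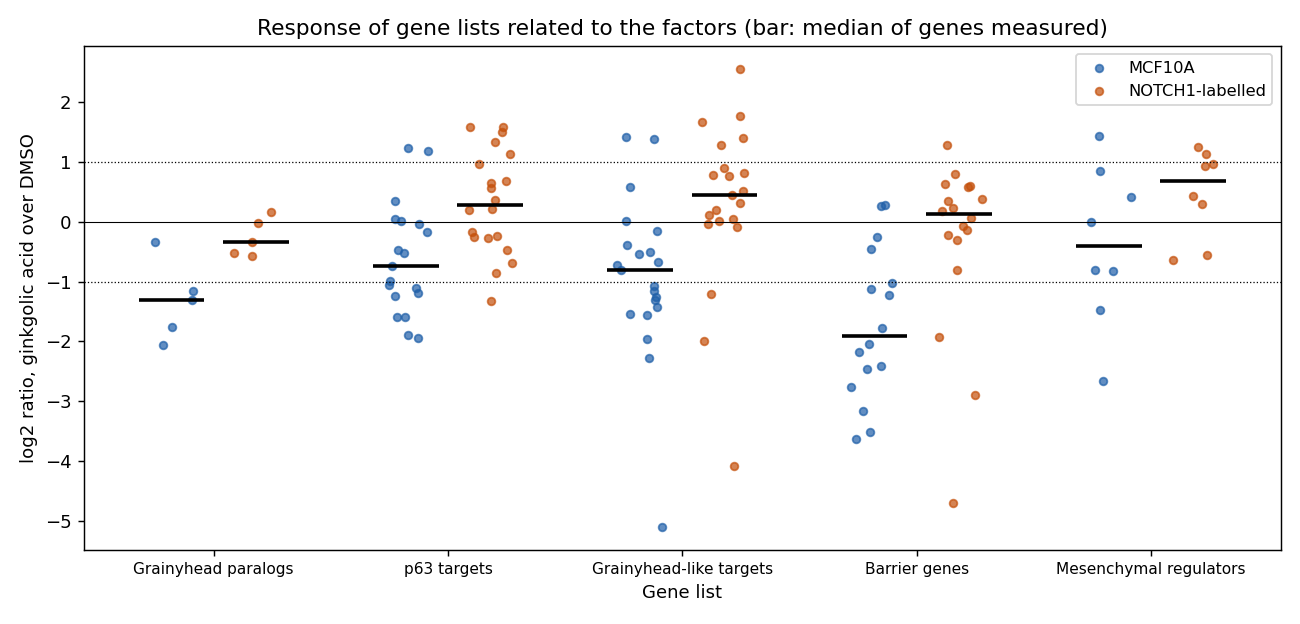
Log2 ratio of ginkgolic acid over DMSO (vertical axis) for each measured gene with a ratio in 5 lists related to the factors (horizontal axis); blue is MCF10A, orange is NOTCH1-labelled cells, black bars are medians and dotted lines mark 2-fold. The medians lie lower in MCF10A in each list, from −1.91 against 0.12 for barrier genes to −0.40 against 0.68 for mesenchymal regulators; the differences were not tested.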

How the data were processed

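The labels' protocols name an RNeasy kit for total RNA and the ScriptSeq Complete Gold kit for libraries. Per the submitters' processing notes, the tools were Bowtie2 2.1.0, TopHat2 2.0.8b, Cuffdiff 2.1.1 and Cufflinks 2.1.1, with GRCh37 (hg19). The sources used here do not give the gene annotation, the settings, the use of strand or how samples were combined. What the authors deposited is 1 FPKM value per gene and group in each of 2 tables, so the depth is unknown and no test over samples could be made; the planned design had none.

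Rows naming no gene (15977 of 70227 for MCF10A, 5455 of 59662 for the NOTCH1-labelled line), rows joining genes (1575 and 1570), repeated symbols, rows off the main chromosomes, small RNA genes and loci under 200 bases were left out. No pseudocount entered the log2 ratios, so a gene at 0 FPKM in either group has no ratio. A size rule of 2-fold took the place of a test. Its counting was run on simulated data whose noise lay far below 2-fold and whose set changes lay above it. That run checks the counting alone, and not the error of the rule in these data. The 10 genes and the lists were chosen with earlier results of these data known. Named list genes are at most 4 per list with the largest ratios past 2-fold, and families of up to 5 paralogs are given whole. Some genes that this rule names are not reported here. The look at neighbours of EHF and KLF5 was added after values were seen. GENCODE 29 gave gene types and overlaps, and RefSeq (GRCh38.p14) the promoter windows, which were used for sequence only. Protein sequences were not compared. Python 3.11.15, numpy 2.4.6, pandas 2.3.3 and matplotlib 3.10.9 were used.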

Additional observations from a re-analysis of the deposited data

Results flagged for a closer look

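Of the genes named, 3 were past 2-fold in opposite directions in the 2 lines, and these differences were not tested, since each group has 1 value. The share of all genes past it in opposite directions was not computed. The ratios of the 2 lines correlated at only 0.11 over 15406 genes, so the count is not a trait of these genes. OVOL1 had a log2 ratio of −2.46 in MCF10A and 1.62 in NOTCH1-labelled cells, a difference of 4.07, at levels near those of olfactory receptor genes. ZNF750 had −1.60 and 1.34, a difference of 2.93. ZEB1 had −2.67 and 1.13, a difference of 3.80. In MCF10A with ginkgolic acid ZNF750 was at 0.922 and ZEB1 at 0.780 FPKM, below the 95th percentile of olfactory receptor genes there, 1.26 FPKM, and both counted as measured in MCF10A only through DMSO.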

How the results depend on the processing

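No paired analysis was possible because the tables give 1 value per group and none per sample, and for the same reason no replicate could be left out. With a minimum of 5 FPKM, 3 of the 10 genes in place of 5 were at least 2-fold lower in MCF10A and 2 in place of 4 at least 2-fold higher in NOTCH1-labelled cells, since fewer genes are measured. With a pseudocount of 1 FPKM the latter count was also 2. At 4-fold, 2 genes were lower in MCF10A, 0 higher in NOTCH1-labelled cells, and 3 in place of 6 had a response higher in NOTCH1-labelled cells. Shares over all genes were not computed at these settings, so such counts describe the 10 genes alone. No ratio or median past 2-fold changed sign, but smaller ones did. With the median ratio removed, ELF5 in MCF10A went from −0.07 to 0.04, and in NOTCH1-labelled cells the medians of ETS paralogs, other regulators and barrier genes went to −0.06, −0.03 and −0.02. With no minimum FPKM the median of other regulators in NOTCH1-labelled cells was −0.23 and the difference of mesenchymal regulators −0.17. The KLF paralog median in MCF10A was −0.12 at a minimum of 5 FPKM and its mean −0.17. The 120 recomputed ratios of the 10 genes include those with rows that join genes kept. That setting left each of them unchanged, since every gene has a row of its own. Of the 120, 115 kept their side of 2-fold. The 5 that did not were GATA3 in MCF10A at −0.79 and OVOL1 and TFAP2C in NOTCH1-labelled cells at 0.83 and 0.85, each with a pseudocount of 1 FPKM, and the differences of ELF3 and TP63 with the median ratio removed. Of 166 list medians, 162 kept their side. Levels near 1 FPKM limit ELF5, OVOL1, GATA3 and TFAP2C most.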
